A study of Mus musculus with 11 samples.

Results

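The Hox cluster genes were examined across sorted skeletal and blood cell populations of the mouse. Members were taken by name: every gene whose symbol in the array annotation is Hoxa, Hoxb, Hoxc or Hoxd followed by a number, with 1 probe set per gene, the one of highest mean over all arrays among those assigned to a single gene. By this rule 33 genes were measured, of 39 Hox genes in RefSeq and of 18193 genes with such a probe set. The Hoxa cluster on chromosome 6 gave 9 of 11 genes, the Hoxb cluster on chromosome 11 gave 9 of 10, the Hoxc cluster on chromosome 15 gave 7 of 9, and the Hoxd cluster on chromosome 2 gave 8 of 9. The other 6 genes had no probe set of their own in the annotation and were not analysed here.

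Hox genes encode homeodomain transcription factors that give a body segment its position along the head-to-tail axis. Within a cluster, genes of low paralog number are switched on early and towards the head, genes of high number late and towards the tail, and in the limb the genes of groups 9 to 13 act in turn from shoulder or hip to digits. Adult skeletal cells keep part of this positional pattern, whereas the neural crest that forms the front of the skull is known for lacking Hox expression. Blood progenitors use Hox genes too, mainly of the Hoxa and Hoxb clusters.

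RNA was measured on 11 Affymetrix mouse A430 arrays, with values given on a log2 scale after RMA normalization. Mx1+Ocn- P-SSCs, periosteal skeletal stem cells (2 arrays), were CD105+CD140a+ cells of mice carrying Mx1-Cre, a Rosa-Tomato reporter and Osteocalcin-GFP. Mx1+Nes+ BM-SSCs from bone marrow (2 arrays) had the same surface markers, and their mice carried Nestin-GFP in place of Osteocalcin-GFP. In both strains Mx1-Cre was switched on with pIpC after lethal irradiation at a few weeks of age and transplantation of wild-type C57BL/6 marrow. Mx1-Cre is also active in blood cells, but by the time of pIpC nearly all blood came from the donor, which carried no reporter. Nes+ BMSCs (1 array) were CD105+CD140a+ marrow cells with Nestin-GFP, with or without Mx1. CD51+ BMSCs (2 arrays) were marrow cells sorted on the alpha V integrin, CD51; the study's text adds CD105 and CD140a to this gate, which the titles do not name. Osx+ osteolineage cells (2 arrays) were sorted on a GFP reporter of Osterix, a transcription factor of the osteoblast lineage. All 5 were depleted of CD45+, CD31+ and Ter119+ cells. CD45+ hematopoietic cells from marrow (2 arrays) served as the blood control. Treatment and age were given in the sources for the Mx1 strains only.

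Position enters the sampling. Per the study's methods, periosteum was pooled from femur, tibia, pelvis and calvaria and marrow from femur, tibia and pelvis. A Hox level is therefore an average over bones of the hindlimb and its girdle and, for P-SSCs, the skull. No vertebra or rib is named among the bones. For the Osx+ and Nes+ arrays the source given is periosteal tissue, although the Nes+ title says marrow. Cells of several male and female mice were pooled for an array. The arrays of a population are called biological repeats, with no word on whether separate mice went into each, so a p-value here covers only array-to-array spread. In such bulk samples fewer cells with a transcript and less transcript per cell cannot be told apart.

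The sequence just upstream of the start site is shown for 3 genes that passed the test below and are held in the RefSeq promoter table (build GRCm38.p6). These are the 250 bases before the start of Hoxa5 (chr6:52204588-52204837, minus strand), Hoxc4 (chr15:103034145-103034394, plus strand) and Hoxd10 (chr2:74691641-74691890, plus strand), each written 5′ to 3′ with the CpG dinucleotides in capitals, since CpG-rich DNA is a mark of Hox clusters and of promoters under Polycomb control.
Hoxa5: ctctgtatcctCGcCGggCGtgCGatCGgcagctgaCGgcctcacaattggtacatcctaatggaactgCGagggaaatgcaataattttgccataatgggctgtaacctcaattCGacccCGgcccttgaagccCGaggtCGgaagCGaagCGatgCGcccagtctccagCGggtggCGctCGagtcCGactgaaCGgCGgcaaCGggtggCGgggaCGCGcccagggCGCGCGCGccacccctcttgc
Hoxc4: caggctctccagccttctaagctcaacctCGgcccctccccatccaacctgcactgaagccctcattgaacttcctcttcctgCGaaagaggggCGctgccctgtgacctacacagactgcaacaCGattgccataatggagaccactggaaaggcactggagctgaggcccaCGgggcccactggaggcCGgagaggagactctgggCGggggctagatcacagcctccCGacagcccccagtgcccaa
Hoxd10: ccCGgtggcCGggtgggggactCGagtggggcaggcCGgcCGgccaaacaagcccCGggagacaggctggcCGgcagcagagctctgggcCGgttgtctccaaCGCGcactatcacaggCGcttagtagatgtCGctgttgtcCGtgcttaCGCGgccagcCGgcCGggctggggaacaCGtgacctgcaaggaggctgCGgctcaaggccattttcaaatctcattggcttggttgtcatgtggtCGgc

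The Hoxa5 promoter held 28 CpGs in 250 bases, as many as or more than which are found in 7.61% of 32851 mouse promoters, the Hoxd10 promoter 20 (17.9%) and the Hoxc4 promoter 8 (43.0%). Over 24 Hox promoters in the table, belonging to 22 genes of which 19 were measured, the median was 12.5 CpGs (range 2 to 35), against 6 over all promoters. The TATA motif TATAAA, searched on both strands, was present in 4 of the 24 Hox promoters (Hoxd13, Hoxd4, Hoxa10 and Hoxb8) and in 12.4% of all promoters. The PBX-HOX motif TGATTNAT was present in 2 of 24 (Hoxd11 and Hoxa2) and in 2.82% of all. These are letter matches in this window only.

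In each SSC population array 2 differed from all other arrays. Interquartile ranges over all probe sets were 1.81 in P-SSCs and 1.98 in BM-SSCs on array 2, and 2.44 to 3.56 on the remaining 9 arrays. The median of 54 ribosomal protein genes was 6.71 for array 2 of the P-SSCs and 11.27 to 12.75 everywhere else. Mesenchymal genes went against the label on P-SSC array 2: Pdgfra, which encodes CD140a, read 4.41 there and 11.29 on P-SSC array 1, with 3.62 and 3.42 in CD45+ cells, and Prrx1 read 3.60 and 10.60. On BM-SSC array 2 both genes were also lower than on BM-SSC array 1, with 6.90 and 10.95 for Pdgfra and 7.04 and 10.38 for Prrx1. For the Hox genes, the 2 P-SSC arrays correlated at 0.73 across the 33 genes and differed by a median of 0.99, and the 2 BM-SSC arrays at 0.77 with a median difference of 0.70, whereas CD51+, Osx+ and CD45+ pairs correlated at 0.98 to 0.99 with median differences of 0.17 to 0.23 (genes are not independent replicates). Of the genes at 6 or more on array 1, 7 of 8 were lower on array 2 in P-SSCs and 12 of 13 in BM-SSCs; of those under 5, 13 of 17 and 12 of 17 were higher. Results are therefore also given for a fit without these 2 arrays, called the 9-array fit, in which the lone array of each SSC population is assumed to vary like the other populations.

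**Figure D1:**
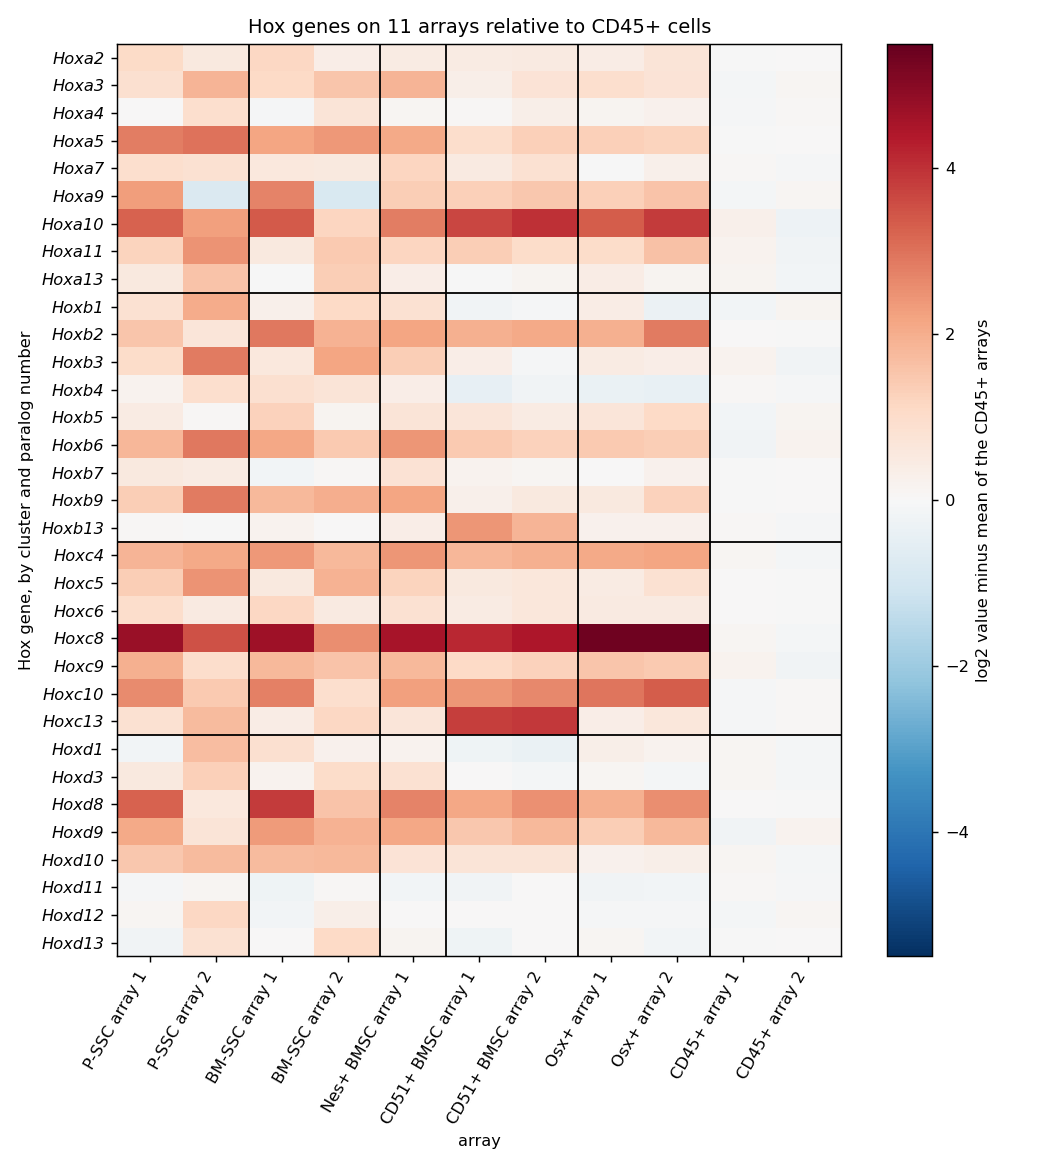
Level of the 33 Hox genes (rows, by cluster and paralog number) on the 11 arrays (columns) as log2 value minus the mean of the 2 CD45+ arrays, red higher and blue lower. Hoxc8 is the darkest row in all non-blood populations, and Hoxc13 and Hoxb13 are raised in the CD51+ columns.

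In each of the 4 replicated non-blood populations some Hox genes were higher than in CD45+ cells, most did not pass, and the genes that passed in any population lay in all 4 clusters. At an adjusted p under 0.05 (limma, Benjamini-Hochberg over all 45037 probe sets), 6 of 33 Hox genes were higher in P-SSCs than in CD45+ cells, beside 2.48% of all probe sets, 7 in BM-SSCs (2.18%), 5 in CD51+ BMSCs (2.95%) and 6 in Osx+ cells (3.65%). None of the 33 was lower at this threshold, beside 7.29%, 6.26%, 2.9% and 5.62% of all probe sets in the same order of populations. At an unadjusted p under 0.05 in either direction the counts were 17 (33.5% of all probe sets), 13 (24.4%), 13 (16.1%) and 11 (19.0%). The median difference over the 33 genes was 1.30 in P-SSCs (0.38 over all probe sets), 0.94 in BM-SSCs (0.18), 0.60 in CD51+ BMSCs (-0.09) and 0.56 in Osx+ cells (0.02). The mean was higher than in CD45+ cells for 33, 31, 27 and 28 genes; after quantile normalization these counts were 27, 28, 27 and 27.

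These counts rest on few arrays. Without either CD45+ array, 1, 0, 0 and 1 genes passed in P-SSCs, BM-SSCs, CD51+ BMSCs and Osx+ cells, and in the 9-array fit 23, 19, 19 and 19 passed, all higher, beside 22.6%, 15.3%, 14.7% and 18.0% of all probe sets. Without either CD51+ array the counts were 3, 3, 0 and 3, and without either Osx+ array 4, 4, 3 and 1. Without P-SSC array 1 they were 18, 11, 11 and 9, and without P-SSC array 2 they were 7, 11, 11 and 9. Without either BM-SSC array 11 genes passed in P-SSCs. Fitted on only the 2 populations compared, 0, 0, 21 and 18 genes passed. Apart from the 9-array fit, the share of all probe sets is not given for these alternative fits. Their counts therefore show how far the calls depend on the fit, and are no result about Hox genes.

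By cluster, the Hoxc genes had the largest median difference from CD45+ cells in each population: 1.92 in P-SSCs, 1.69 in BM-SSCs, 1.89 in CD51+ BMSCs and 1.49 in Osx+ cells, with 2, 3, 3 and 3 of 7 genes passing and all 7 means higher. Over all probe sets the medians were 0.38, 0.18, -0.09 and 0.02 in the same order. For all counts in this paragraph, 2.48%, 2.18%, 2.95% and 3.65% of all probe sets passed as higher. The Hoxa medians were 1.05, 0.94, 0.67 and 0.84, with 1, 1, 1 and 2 of 9 passing. The Hoxb medians were 1.10, 0.80, 0.40 and 0.41, with 2, 1, 1 and 1 of 9 passing. The Hoxd medians were 0.85, 0.58, -0.01 and 0.12, with 1, 2, 0 and 0 of 8 passing. By position within the cluster, paralog groups 1 to 3 had 0, 1, 0 and 1 of 7 genes passing, groups 4 to 8 had 4, 3, 2 and 3 of 12, and groups 9 to 13 had 2, 3, 3 and 2 of 14. These counts were not tested against each other.

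**Figure D2:**
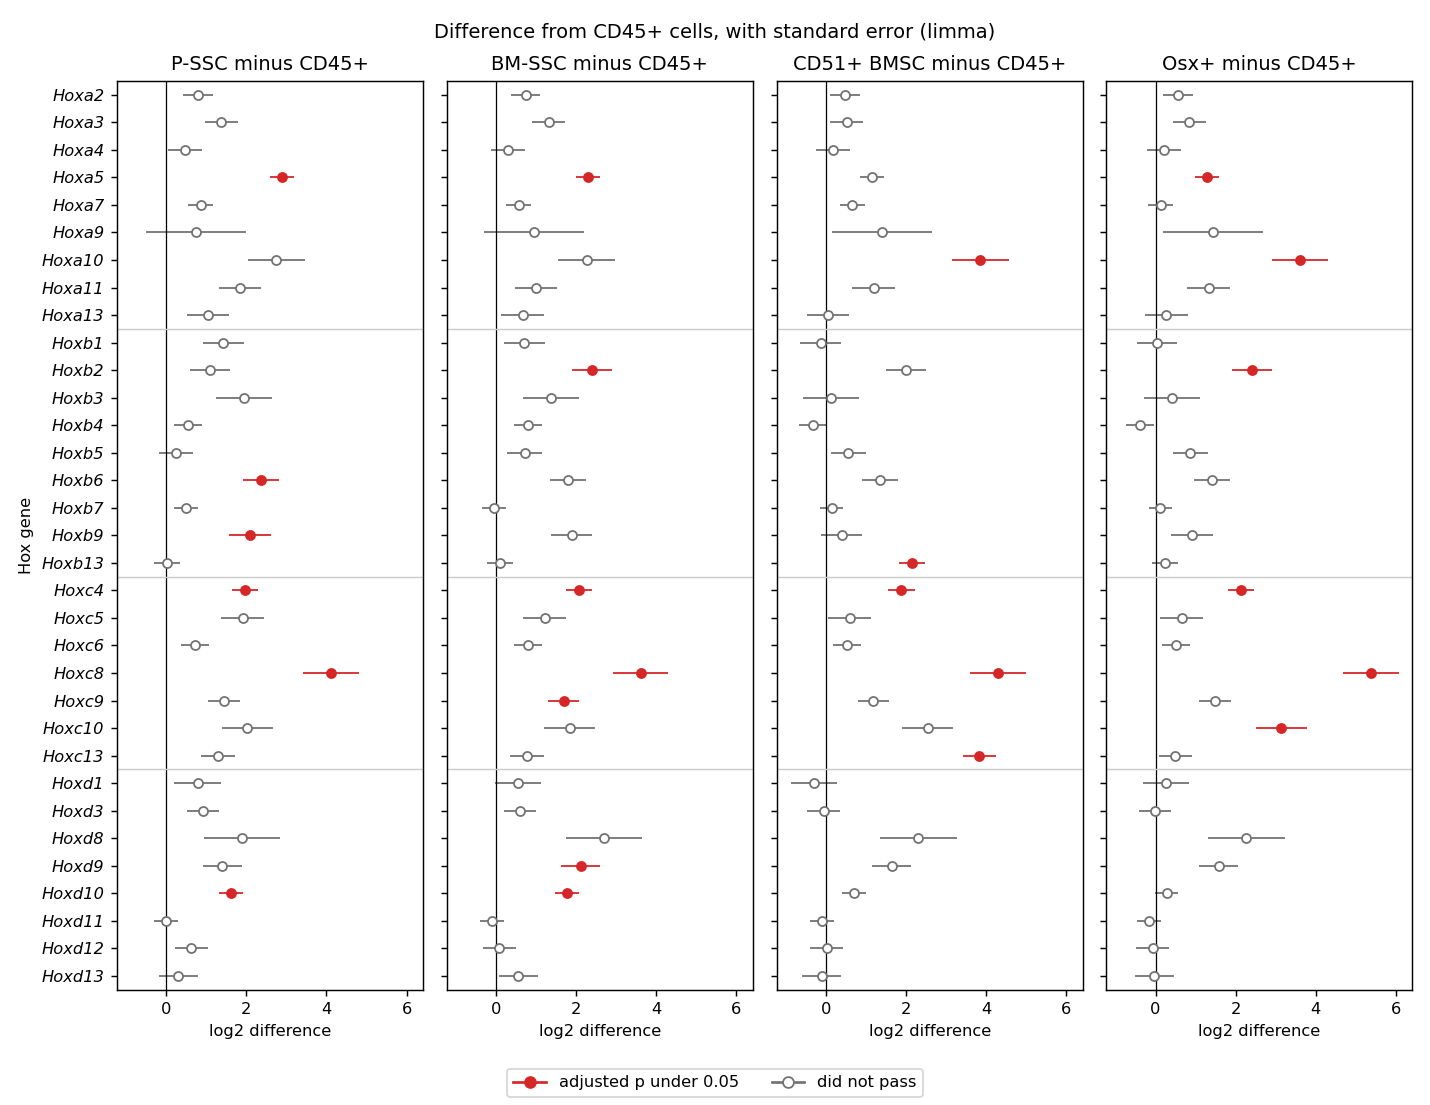
Difference of each Hox gene from CD45+ cells on the log2 scale with its standard error (limma), from left to right in P-SSCs, BM-SSCs, CD51+ BMSCs and Osx+ cells; filled red points passed at an adjusted p under 0.05. Hoxc4 and Hoxc8 are filled in all 4 panels, Hoxc13 and Hoxb13 in the CD51+ panel only.

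Hoxc8, which patterns the thoracic vertebrae and ribs and marks the trunk, had the widest range of population means of all Hox genes. It read 7.43 and 6.17 in P-SSCs, 7.34 and 5.24 in BM-SSCs, 7.22 on the Nes+ array, 6.83 and 7.13 in CD51+ BMSCs, 8.05 and 8.06 in Osx+ cells, and 2.81 and 2.56 in CD45+ cells. All 9 non-blood arrays lay above both CD45+ arrays, the nearest by more than 2 units. The difference from CD45+ cells was 4.11 in P-SSCs (SE 0.69, adjusted p = 0.0134, limma), 3.61 in BM-SSCs (0.0216), 4.30 in CD51+ BMSCs (0.0146) and 5.37 in Osx+ cells (0.00309). The Osx+ call passed without each array in turn; the other 3 were lost without either CD45+ array (highest adjusted p 0.130, 0.174 and 0.151). Osx+ cells had the highest mean (8.06 ± 0.00, SD, n = 2), then CD51+ BMSCs (6.98 ± 0.21), P-SSCs (6.80 ± 0.89) and BM-SSCs (6.29 ± 1.49), and no pair of non-blood populations differed at the threshold. Cartilage genes moved with the Osx+ arrays. All 10 chondrocyte markers were higher than in CD45+ cells at the threshold, beside 3.65% of all probe sets. Their median was 13.44 and 13.42 in Osx+ cells, against 9.55 and 9.86 in CD51+ BMSCs. It was 4.76 to 8.44 on the SSC and Nes+ arrays and 3.33 and 3.37 in CD45+ cells. The part of these markers in the Hox levels of Osx+ cells was not tested. In the 9-array fit CD51+ BMSCs differed from Osx+ cells by -1.07 (adjusted p = 0.00221, limma; 11.4% of all probe sets were lower).

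Hoxc4, which acts at the neck and upper trunk, was the other gene to pass in all 4 populations. Its values were 5.89 and 6.08 in P-SSCs, 6.38 and 5.78 in BM-SSCs, 6.45 on the Nes+ array, 5.85 and 5.95 in CD51+ BMSCs, 6.11 and 6.18 in Osx+ cells, and 4.12 and 3.90 in CD45+ cells. The 9 non-blood arrays lay between 5.78 and 6.45, and array 2 of the SSCs did not stand apart for this gene. The differences from CD45+ cells were 1.97 (adjusted p = 0.0129), 2.07 (0.0109), 1.89 (0.0185) and 2.13 (0.00676, limma), and all 4 calls were lost without either CD45+ array.

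Hoxc10 and Hoxa10, genes of the lumbar and limb level that shape the lumbosacral spine and the thigh, were high in Osx+ and CD51+ cells. Hoxc10 read 6.78 and 5.63 in P-SSCs, 6.95 and 5.08 in BM-SSCs, 6.43 on the Nes+ array, 6.61 and 6.83 in CD51+ BMSCs, 7.13 and 7.50 in Osx+ cells, and 4.10 and 4.24 in CD45+ cells. Its difference passed in Osx+ cells (3.14, SE 0.64, adjusted p = 0.0213) and did not in CD51+ BMSCs (2.55, adjusted p = 0.0629, limma). Hoxa10 read 5.98 and 5.02 in P-SSCs, 6.11 and 3.91 in BM-SSCs, 5.58 on the Nes+ array, 6.44 and 6.78 in CD51+ BMSCs, 6.09 and 6.61 in Osx+ cells, and 3.04 and 2.46 in CD45+ cells. It passed in CD51+ BMSCs (3.86, SE 0.71, adjusted p = 0.0217) and in Osx+ cells (3.60, 0.0187), was 2.75 in P-SSCs (0.0510), and lost both calls after quantile normalization (0.107 and 0.0796, limma). For both genes array 2 of each SSC population was the lowest non-blood array or the next to it. A dimmer second Hoxa10 probe set differed by 0.10 in CD51+ BMSCs and 0.21 in Osx+ cells (adjusted p = 1.00 in both, limma), so the probe sets of this gene disagreed.

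**Figure D3:**
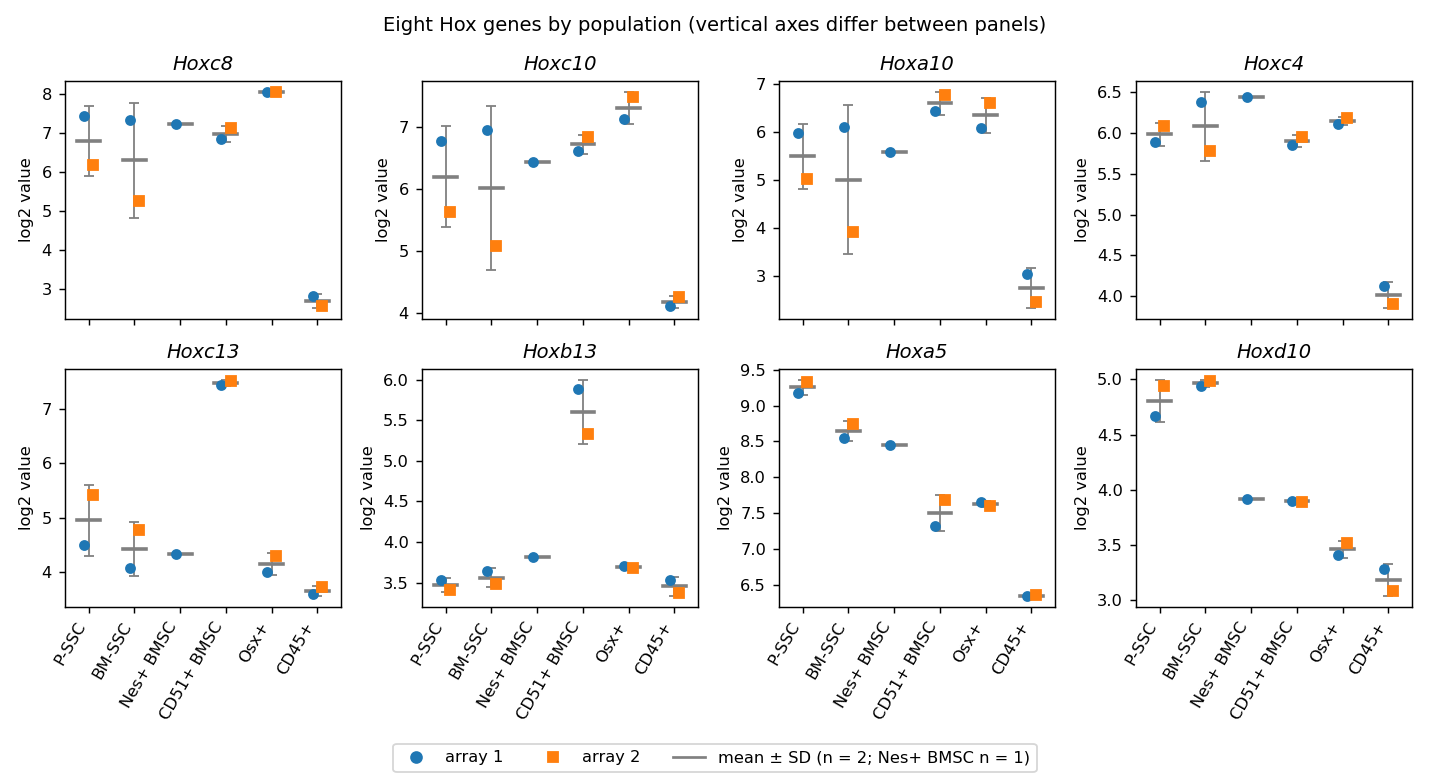
Log2 value (vertical axes, which differ between panels) of Hoxc8, Hoxc10, Hoxa10, Hoxc4, Hoxc13, Hoxb13, Hoxa5 and Hoxd10 on each array by population, with blue circles for array 1, orange squares for array 2 and grey bars for the mean ± SD. Hoxc8 lies at 5.24 to 8.06 on the 9 non-blood arrays and at 2.56 and 2.81 in CD45+ cells, and Hoxc13 is at 7.45 and 7.53 in CD51+ BMSCs only.

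Hoxa5 and Hoxd10 were highest in the SSC populations. Hoxa5, a regulator of the cervical and upper thoracic skeleton, read 9.18 and 9.33 in P-SSCs, 8.55 and 8.74 in BM-SSCs, 8.45 on the Nes+ array, 7.33 and 7.68 in CD51+ BMSCs, 7.66 and 7.60 in Osx+ cells, and 6.36 and 6.36 in CD45+ cells. The populations formed steps without overlap, P-SSCs above BM-SSCs and Nes+ BMSCs, these above CD51+ and Osx+ cells, and CD45+ cells lowest. The difference from CD45+ cells was 2.90 in P-SSCs (SE 0.30, adjusted p = 0.00236), 2.29 in BM-SSCs (0.00535) and 1.27 in Osx+ cells (0.0384), and it was 1.15 in CD51+ BMSCs (0.0738, limma). The P-SSC call passed without each array in turn (highest adjusted p 0.0462). Against Osx+ cells Hoxa5 was 1.62 higher in P-SSCs (adjusted p = 0.0722) and 1.01 higher in BM-SSCs (0.315), and in the 9-array fit these values were 1.55 (0.00133) and 0.92 (0.0180, limma).

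This Hoxa5 probe set is of a type whose probes may match other transcripts, and a second, dimmer set ordered the arrays differently. It read 8.04 and 4.02 in P-SSCs, 8.44 and 5.65 in BM-SSCs, 7.14 on the Nes+ array, 6.87 and 7.01 in CD51+ BMSCs, 6.68 and 7.16 in Osx+ cells, and 4.83 and 4.61 in CD45+ cells. On it P-SSC array 2 lay below both CD45+ arrays, and no comparison with CD45+ cells passed (limma; P-SSCs had an adjusted p = 0.429, BM-SSCs 0.312 and Osx+ cells 0.497). Hoxa9, a gene of the upper limb segment that is also used by blood progenitors, showed the reverse order. On array 2 its brighter set read 5.22 in P-SSCs and 5.15 in BM-SSCs, below both CD45+ arrays (5.90 and 6.12), whereas array 1 read 8.30 in P-SSCs and 8.75 in BM-SSCs, and no comparison with CD45+ cells passed. Its dimmer set read 6.29 and 6.91 in P-SSCs and 6.22 and 6.995 in BM-SSCs, against 4.64 and 4.71 in CD45+ cells, and passed in both (1.92, adjusted p = 0.0228, and 1.93, 0.0234, limma). Of the 11 Hox genes with more than 1 probe set, Hoxc6 and Hoxd8 likewise passed on a dimmer set and not on the brighter one.

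**Figure D4:**
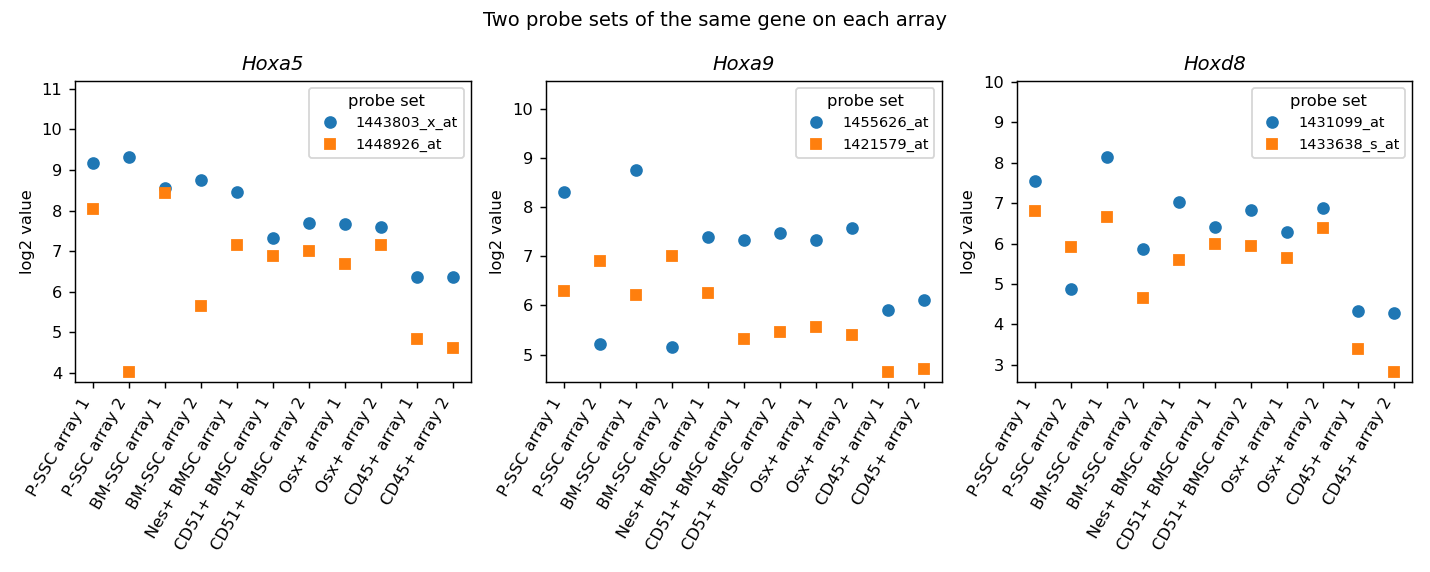
Log2 value of the brighter (blue circles) and the second (orange squares) probe set of Hoxa5, Hoxa9 and Hoxd8 on each of the 11 arrays, with the Affymetrix probe set name in the legend. The probe sets of Hoxa5 part on P-SSC array 2 (9.33 and 4.02), and those of Hoxa9 cross on array 2 of both SSC populations.

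Hoxd10, which acts with Hoxa10 and Hoxc10 in the hindlimb and lumbar spine, read 4.67 and 4.94 in P-SSCs, 4.94 and 4.99 in BM-SSCs, 3.92 on the Nes+ array, 3.90 and 3.89 in CD51+ BMSCs, 3.41 and 3.52 in Osx+ cells, and 3.29 and 3.08 in CD45+ cells. All 4 SSC arrays lay above the other 7. The difference from CD45+ cells was 1.62 in P-SSCs (SE 0.29, adjusted p = 0.0172) and 1.78 in BM-SSCs (0.0124, limma). Against Osx+ cells it was 1.34 (adjusted p = 0.117) and 1.502 (0.102), and in the 9-array fit 1.21 (0.00241) and 1.48 (0.00144, limma).

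Apart from Hoxc13 and Hoxb13, 5 further genes passed, each in 1 or 2 populations. Hoxb2, a hindbrain-level gene, read 7.13 and 6.16 in BM-SSCs and 6.18 and 7.12 in Osx+ cells, against 4.28 and 4.21 in CD45+ cells, and passed in both (2.40, adjusted p = 0.0273, and 2.41, 0.0224, limma). It also read 6.41 on the Nes+ array, 6.18 and 6.32 in CD51+ BMSCs and 5.77 and 4.92 in P-SSCs. Hoxb6 (4.65 and 5.73 in P-SSCs, against 2.61 and 3.04 in CD45+ cells) and Hoxb9 (5.07 and 6.59, against 3.71 and 3.77), both of the thoracic level, passed in P-SSCs (2.37, adjusted p = 0.0197, and 2.10, 0.0467, limma). Here P-SSC array 2 was the highest of all arrays; without it Hoxb9 no longer passed and Hoxb6 did. Hoxc9 (6.92 and 6.70 in BM-SSCs, against 5.30 and 4.94) and Hoxd9 (6.78 and 6.34, against 4.26 and 4.63), of the lower thoracic level and the upper limb segment, passed in BM-SSCs (1.69, adjusted p = 0.0411, and 2.11, 0.0402, limma), and were lost without either BM-SSC array. Hoxc9 also read 7.06 and 6.08 in P-SSCs, 6.90 on the Nes+ array, 6.23 and 6.39 in CD51+ BMSCs and 6.65 and 6.56 in Osx+ cells. Hoxd9 read 6.54 and 5.17, 6.57, 5.95 and 6.25, and 5.82 and 6.22 in the same order. Hoxd8, a trunk gene, passed in no population on its brighter set although its means were 6.20 ± 1.88 for P-SSCs, 7.01 ± 1.62 for BM-SSCs, 6.62 ± 0.29 for CD51+ BMSCs and 6.57 ± 0.42 for Osx+ cells, against 4.31 ± 0.05 for CD45+ cells (SD, n = 2). Its P-SSC arrays read 7.54 and 4.87 and its BM-SSC arrays 8.15 and 5.86, and in the 9-array fit it passed in all 4 populations (differences 3.23, 3.84, 2.31 and 2.26).

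Hoxc13 and Hoxb13, of the most tail-ward paralog group, were high in CD51+ BMSCs. Hoxc13, best known for hair and nail formation, read 7.45 and 7.53 there, against 4.01 and 4.30 in Osx+ cells and 3.59 and 3.72 in CD45+ cells; P-SSCs read 4.49 and 5.42, BM-SSCs 4.08 and 4.78, and Nes+ BMSCs 4.34. Hoxb13, a gene of the tail bud and the prostate, read 5.88 and 5.33 in CD51+ BMSCs, against 3.37 to 3.81 on the other 9 arrays. Both CD51+ arrays lay above all other arrays for both genes. CD51+ BMSCs exceeded CD45+ cells by 3.83 in Hoxc13 (SE 0.42, adjusted p = 0.00420) and by 2.15 in Hoxb13 (SE 0.32, 0.0111, limma). Against Osx+ cells 2 Hox genes passed, both higher in CD51+ BMSCs, beside 1.51% of all probe sets: Hoxc13 by 3.33 (adjusted p = 0.00820) and Hoxb13 by 1.91 (0.0258, limma).

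The SSC populations were lower than CD51+ BMSCs in the same genes. P-SSCs were lower in 1 Hox gene (0.591% of all probe sets), Hoxb13, by -2.13 (adjusted p = 0.0401), and Hoxc13 differed by -2.53 (0.0529, limma). BM-SSCs were lower in 2 (0.591%), Hoxc13 by -3.06 (adjusted p = 0.0317) and Hoxb13 by -2.04 (0.0461, limma). In the 9-array fit both genes passed as lower for either SSC population (Hoxc13 -2.995 and -3.41, Hoxb13 -2.07 and -1.96, beside 15.9% and 8.6% of all probe sets), and 10 and 8 other Hox genes were higher in P-SSCs (13.7%) and BM-SSCs (5.61%). The other paralogs of the group were not raised in CD51+ BMSCs: Hoxa13 read 2.79 and 2.96 there, against 2.97 and 2.67 in CD45+ cells, and Hoxd13 3.47 and 3.70, against 3.67 and 3.70. Hoxb13 lost its calls after quantile normalization (adjusted p = 0.0622 against CD45+ and 0.143 against Osx+ cells), and without either CD51+ array 0 Hox genes passed in any comparison with CD51+ BMSCs (highest adjusted p for Hoxc13 0.0710 against CD45+ and 0.111 against Osx+ cells, limma).

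Markers of other tissues moved with the CD51+ arrays. The CD51+ cells were sorted as CD45-, yet Ptprc, which encodes CD45, read 10.23 and 10.17, against 2.42 and 5.07 in Osx+ cells and 12.06 and 12.05 in CD45+ cells. Of 12 blood cell markers, 9 were higher than in Osx+ cells at the threshold, beside 1.51% of all probe sets. The median of these 12 was 10.23 and 10.27 in CD51+ BMSCs, against 3.65 and 5.40 in Osx+ cells and 11.81 and 11.72 in CD45+ cells. Of 10 markers of skeletal muscle fibres 7 passed as higher than in CD45+ cells (2.95% of all probe sets) and 4 than in Osx+ cells (1.51%). The median of the 10 was 7.33 and 8.29 in CD51+ BMSCs, against 4.98 and 4.81 in Osx+ cells and 4.32 and 4.17 in CD45+ cells. Myh1, a fast myosin heavy chain, read 7.79 and 8.83, against 2.09 to 3.60 elsewhere. A list of 19 measured genes of epidermis and hair follicle was drawn up after the Hoxc13 values were seen. Of these, 0 passed as higher in CD51+ BMSCs than in CD45+ or Osx+ cells, beside 2.95% and 1.51% of all probe sets. The median difference from CD45+ cells was 0.01. The highest level among the 19, which need not be the same gene on each array, was 10.04 and 9.89 in CD51+ BMSCs. It was 8.67 and 7.01 in P-SSCs, 8.84 and 6.41 in BM-SSCs and 7.795 on the Nes+ array. In CD45+ cells it was 6.99 and 7.15, and in Osx+ cells 7.50 and 7.895. The keratin Krt14 read 3.40 and 3.63, against 3.21 and 2.996 in CD45+ cells. Single markers of other cells also passed as higher than in Osx+ cells (1.51%): the fibroblast genes Pi16 (7.17) and Mfap5 (6.98) of 9, Tek (5.22) of 10 endothelial genes and Myf5 (2.67) of 8 muscle stem cell genes. The part of blood, muscle or other cells in the Hoxc13 and Hoxb13 values was not tested.

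Between the SSC populations and Osx+ cells no Hox gene passed. For P-SSCs against Osx+ cells the count was 0 of 33 (0.808% of all probe sets in either direction), with 7 at an unadjusted p under 0.05 (18.1%; Hoxa5, Hoxa7, Hoxb1, Hoxb4, Hoxc5 and Hoxd10 higher, Hoxb2 lower); for BM-SSCs it was 0 (0.615%), with 4 (9.24%; Hoxa5, Hoxb4 and Hoxd10 higher, Hoxc8 lower). The median differences of 0.38 and 0.29 lay beside 0.35 and 0.16 over all probe sets. For the fit without P-SSC array 1, which leaves 1 P-SSC array, the share of all probe sets is not given. The number of Hox genes passing in that fit, given below, shows dependence on the fit only. In the 9-array fit 6 were higher in P-SSCs (12.0%): Hoxa5, Hoxa7, Hoxa9, Hoxc5, Hoxd8 and Hoxd10. In BM-SSCs 7 were then higher (7.15%): Hoxa5, Hoxa9, Hoxb4, Hoxc6, Hoxd1, Hoxd8 and Hoxd10. Hoxc8 and Hoxc10 were in neither set.

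P-SSCs and BM-SSCs did not differ in any Hox gene at the threshold (0 of 33, beside 0.0% of all probe sets, limma), and 1 gene had an unadjusted p under 0.05 (2.07%). This was Hoxb2, with 5.77 and 4.92 in P-SSCs and 7.13 and 6.16 in BM-SSCs, a difference of -1.30 (SE 0.50, adjusted p = 0.980). The median difference over the Hox genes was 0.18, against 0.12 over all probe sets. In the 9-array fit, here 1 array against 1, the count was again 0, beside 2.06% of all probe sets, with 8 at an unadjusted p under 0.05 (21.1%). Calvaria entered the periosteal pool only, and what share of its cells lacked Hox transcripts cannot be read from pooled RNA.

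For BM-SSCs against Nes+ BMSCs, a population with 1 array and so with no spread of its own, 0 of 33 genes passed (0.0%, limma), and Hoxd10 alone had an unadjusted p under 0.05 (0.835%), with a difference of 1.05 (adjusted p = 1.00). In the 9-array fit 4 were higher in BM-SSCs (Hoxa9, Hoxd1, Hoxd8 and Hoxd10, 15.8%) and Hoxb7 was lower (12.1%), with 1 array on each side.

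Some Hox genes varied little outside array 2 of the SSC populations. On the other 9 arrays Hoxd12 spanned 0.25 units, Hoxd11 0.33, Hoxd13 0.36 and Hoxa4 0.39. Over all 11 arrays the spans were 1.29 for Hoxd12, 0.34 for Hoxd11, 1.32 for Hoxd13 and 1.01 for Hoxa4, and the population means lay between 2.45 and 4.24. Hoxd11 and Hoxd13, of the forearm, shank and digits, differed from CD45+ cells by no more than 0.56 in any population, with no call. These levels are near the bottom of the array scale, where a probe set cannot separate a silent from a weakly transcribed gene.

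Genes that work with Hox proteins or share their territory were read from lists. Of 9 Hox cofactors 8 were measured; 2 were higher in P-SSCs than in CD45+ cells, Meis2 (2.23, adjusted p = 0.0415) and Pknox2 (1.76, 0.0235), homeodomain proteins that bind DNA beside Hox and Pbx, and 1 in CD51+ BMSCs (Pknox2, 1.92, 0.0217, limma), beside 2.48% and 2.95% of all probe sets. None passed in BM-SSCs or Osx+ cells (2.18% and 3.65%). The median differences of the 8 were 0.60, 0.36, 0.14 and 0.45 in P-SSCs, BM-SSCs, CD51+ BMSCs and Osx+ cells.

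Of 21 transcription factors of the limb bud, 1 was higher than in CD45+ cells in P-SSCs (Tbx3, 2.14; 2.48% of all probe sets), 5 were in BM-SSCs (2.18%), 3 in CD51+ BMSCs (2.95%) and 4 in Osx+ cells (3.65%). Irx5, an early hindlimb factor, differed by 4.77 in BM-SSCs and 6.58 in Osx+ cells (adjusted p = 0.0231 and 0.00472), and Shox2, the factor of the upper limb segment, by 3.33, 3.05 and 5.10 in BM-SSCs, CD51+ BMSCs and Osx+ cells (0.0264, 0.0436 and 0.00356, limma). Isl1 (1.99, adjusted p = 0.0219) and Tbx4, the hindlimb selector (1.97, 0.0456, limma), passed in BM-SSCs. For Tbx4 the BM-SSC arrays lay apart at 5.72 and 4.28, and the Nes+ array read 4.94. The P-SSC arrays were at 4.18 and 4.16, the CD51+ arrays at 4.04 and 4.02, and the CD45+ arrays at 3.05 and 3.02. Among transcription factors of the cranial skeleton 21 of 24 were measured, with 4 higher in P-SSCs (2.48%), 4 in BM-SSCs (2.18%), 1 in CD51+ BMSCs (2.95%) and 4 in Osx+ cells (3.65%). Msx1 was higher in all 4 (2.26, 1.98, 2.61 and 2.38), and Dlx5, which also drives osteoblasts outside the skull, in P-SSCs, BM-SSCs and Osx+ cells (3.53, 4.14 and 4.48). Alx1, a factor of the frontonasal neural crest, passed in P-SSCs (1.33, adjusted p = 0.0479, limma), with 3.88 and 4.03 there, against 2.58 and 2.67 in CD45+ cells. It read 3.99 on the Nes+ array, 3.90 and 3.26 in Osx+ cells, 3.25 and 3.23 in BM-SSCs and 2.76 and 3.05 in CD51+ BMSCs. These Alx1 levels are all near the bottom of the array scale. On all 11 arrays no cofactor, limb or cranial factor passed between 2 non-blood populations, whereas in the 9-array fit some did. Against CD51+ BMSCs, P-SSCs then had 6 limb and 7 cranial factors higher (13.7%) and 2 and 1 lower (15.9%). Against Osx+ cells, BM-SSCs had 5 limb factors higher (7.15%) and 3 lower (7.46%), CD51+ BMSCs 3 higher (13.3%) and 5 lower (11.4%), and P-SSCs 2 cofactors higher (12.0%) and 2 lower (14.0%).

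Upstream of Hox genes, 24 regulators were measured, among them retinoic acid receptors and enzymes and Polycomb and Trithorax genes. All calls in this paragraph are against CD45+ cells. Of all probe sets 2.48%, 2.18%, 2.95% and 3.65% were higher in P-SSCs, BM-SSCs, CD51+ BMSCs and Osx+ cells. The shares that were lower were 7.29%, 6.26%, 2.9% and 5.62%. Rarb, a retinoic acid receptor that is itself induced by retinoic acid, was higher in P-SSCs (2.90, adjusted p = 0.00593) and CD51+ BMSCs (2.17, 0.0209), and Rarg, Cyp26b1 and Dot1l were higher in Osx+ cells (2.06, 3.47 and 1.87, limma). Cyp26a1 was higher in P-SSCs (1.27). Gmnn (geminin), which restrains DNA replication, was the only regulator that passed as lower, in all 4 populations (-3.27, -3.76, -2.27 and -3.28). Beside the shares above, this is no result about the regulators as a group. Of 22 noncoding and neighbouring genes of the clusters 12 were measured. Hoxb5os, a noncoding RNA of the Hoxb cluster, was higher in P-SSCs (2.35, adjusted p = 0.0268) and BM-SSCs (2.26, 0.0318, limma), while Hoxb5 differed by 0.25 and 0.72 without passing. Outside the clusters, Skap1 beside Hoxb, an adaptor of T cell signalling, was lower in all 4 populations (-2.32, -1.98, -2.54 and -2.45), Snx10 near Hoxa in 3, and Skap2, the gene next to Hoxa, in P-SSCs (-3.90, adjusted p = 0.0483, limma).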

How the data were processed

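The deposited values were log2 intensities that the authors had normalized with RMA in Partek GS and R; the limma version they used is not given in the sources used here. A linear model with 1 coefficient for each population was fitted to 45037 probe sets over the 11 arrays (64 control probe sets left out) with limma 3.58.1 in R 4.3.3 (5 residual and 2.65 prior degrees of freedom), with Benjamini-Hochberg adjustment within each comparison and a threshold of 0.05. Annotation gave 1 symbol to 34945 probe sets, several to 932 and none to 9160. Named were every Hox gene that passed in a comparison and the 10 with the widest range of population means. From other lists a selection of genes was named, not always those with the largest difference. The members and lists were chosen with earlier results of these data known. Alternatives were a fit of the compared groups, quantile normalization, median centring, a filter on dim probe sets, variance trend, a block for array number, 1 or another probe set per gene and leaving out arrays. Leaving out array 2 of both SSC populations was added after seeing the data. The model was tested on simulated data. Few arrays limit the precision. Deviations of same-numbered arrays correlated at 0.78 between P-SSCs and BM-SSCs and at -0.27 to 0.01 in the other 9 pairs of populations.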

Additional observations from a re-analysis of the deposited data

How the results depend on the processing

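Of 29 calls of Hox genes, 2 passed without each array in turn (Hoxa5 in P-SSCs and Hoxc8 in Osx+ cells, both against CD45+ cells), and none changed sign under any alternative run. Leaving out 1 array gave 1 to 18 Hox genes past the threshold in P-SSCs against CD45+ cells, 0 to 11 in BM-SSCs, 0 to 11 in CD51+ BMSCs and 1 to 9 in Osx+ cells; 0 to 14 in P-SSCs and 0 to 1 in BM-SSCs against Osx+ cells, 0 to 2 in CD51+ BMSCs against Osx+ cells, 0 to 14 in P-SSCs and 0 to 3 in BM-SSCs against CD51+ BMSCs, 0 to 1 in P-SSCs against BM-SSCs and 0 in BM-SSCs against Nes+ BMSCs. Fitting only the groups compared gave 0 for P-SSCs, 0 for BM-SSCs, 21 for CD51+ BMSCs and 18 for Osx+ cells against CD45+ cells, and 0 in both SSC populations against CD51+ BMSCs. Quantile normalization gave 2 in CD51+ BMSCs against CD45+ cells, 1 against Osx+ cells, and 0 in both SSC populations against CD51+ BMSCs. Median centring gave 4 in BM-SSCs against CD45+ cells and 2 in P-SSCs against CD51+ BMSCs. Leaving out dim probe sets, which kept 17 Hox genes, gave 1 in CD51+ BMSCs against Osx+ cells, 0 in P-SSCs and 1 in BM-SSCs against CD51+ BMSCs, and the variance trend gave 2 in P-SSCs against CD51+ BMSCs. The share of all probe sets is not given for these alternative runs, so their counts show dependence on the fit only.

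Without array 2 of both SSC populations the counts were 23, 19, 19 and 19 against CD45+ cells (P-SSCs, BM-SSCs, CD51+ BMSCs, Osx+ cells), 6, 7 and 5 against Osx+ cells, 12 and 10 against CD51+ BMSCs and 5 in BM-SSCs against Nes+ BMSCs. The cause of these shifts was not tested. Deviations of same-numbered arrays correlated only between P-SSCs and BM-SSCs (0.78), where array 2 of both stood apart, and the labels tie no arrays across populations. With the array number as a replicate block, 0 Hox genes passed in P-SSCs and 1 in BM-SSCs against CD51+ BMSCs, the counts against CD45+ cells were 8, 7, 5 and 5, and 4 of the 29 calls were lost (Hoxd9 in BM-SSCs and Hoxa5 in Osx+ cells against CD45+ cells, and Hoxb13 in both SSC populations against CD51+ BMSCs). The share of all probe sets is not given for the block fit, so its counts show dependence on the fit only.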
